A study of Mus musculus with 6 samples.

Results

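The citric acid cycle enzymes described here are 9 genes, Cs, Idh3a, Idh3b, Idh3g, Ogdh, Suclg1, Sucla2, Fh1 and Mdh2. The rule takes the non-control probes whose RefSeq transcript belongs to one of these genes and uses no measured value, although the list was chosen with earlier results of these data known. They are covered by 11 of the 55681 probes on the arrays and stand for 9 of the 20869 genes and transcripts tested. RNA from muscle that the labels call gastrocnemius was hybridised to 6 mouse Agilent arrays with the single dye Cy3. The 3 groups had 2 arrays each. B10_tap was C57BL/10 mice drinking tap water, MDX_tap was MDX mice drinking tap water, and MDX_JJ101 was MDX mice drinking the bioceramic water JJ101. The labels give 10 months of drinking water for every group, and the question they state is what bioceramic water does to gene expression in muscle, with both tap water groups as controls. MDX mice carry a germline mutation of the dystrophin gene Dmd and are a model of Duchenne muscular dystrophy. JJ101 was given to MDX mice alone, so its effect in C57BL/10 mice was not measured. The labels number the replicates without saying that they were separate mice, so the p-values measure the spread between these samples, which may be technical.

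The citric acid cycle runs in the mitochondrial matrix, where it oxidises the acetyl groups made from carbohydrate, fat and amino acids to carbon dioxide and passes the electrons to the respiratory chain as NADH and FADH2. Citrate synthase joins acetyl-CoA to oxaloacetate, and the oxidative steps of isocitrate dehydrogenase and 2-oxoglutarate dehydrogenase release carbon dioxide. Succinyl-CoA synthetase then makes a nucleoside triphosphate directly, and fumarase and malate dehydrogenase close the ring. Working muscle, and heart muscle above all, is rich in mitochondria, and citrate synthase activity is widely used as a measure of mitochondrial content.

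Between 42.5% and 51.6% of the 59305 non-control spots of an array were well above background, with the lowest shares on the MDX_JJ101 arrays. On the log2 scale explained with the members' values, the brightest of 3 probes for Dmd read 1.06 and 1.06 for B10_tap, -0.84 and -0.27 for MDX_tap, and -1.50 and -1.74 for MDX_JJ101. The tissue label was set against marker genes. Of 12 heart muscle markers 11 were well above background on all 6 arrays, and Myh6, which encodes a cardiac myosin heavy chain, lay between 10.17 and 10.45 on every array. Of 10 regulators of limb muscle only 1 was well above background on all arrays, and 6 were on none, among them Myod1, Myf5 and Myog. Of 12 fast skeletal markers, 6 passed that limit on every array, 5 on some and 1 on none. Among the 5, Myh4 and Actn3 cleared the background on each of the 4 tap water arrays but on neither MDX_JJ101 array. All 6 arrays thus carried heart transcripts under a gastrocnemius label, and the groups below are named by their labels. In bulk RNA, fewer cells of a type and less RNA per cell cannot be told apart.

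RefSeq promoters of build GRCm38.p6, each reaching from 250 bases before to 50 bases after a gene's start, were found for 8 of the 9 members. Idh3a was not matched, Ogdh had 6 promoters and the other matched members 1 each, 13 in all. They were searched on both strands for 5 motifs of factors known from genes of mitochondrial proteins. The NRF1 motif was in 4.6% of the 32851 promoters of the table and, among the members, in that of Sucla2. The letters AAGGTCA, recognised by nuclear receptors and also contained in the longer motif TCAAGGTCA of the oestrogen-related receptors, were in 4.72% of all promoters and in 1 of the 6 for Ogdh. TCAAGGTCA itself (0.423% of all promoters), the GABPA motif CCGGAAGT (3.89%) and the YY1 motif (0.633%) were in 0 of the 13, which says only that these letters are not in these windows. The promoters held 49.3% to 72.3% G and C and 11 to 37 CpG dinucleotides, against medians of 52.7% and 7 over all promoters. The bases up to the start, and for Ogdh to the end of the match, are shown for both members with a match and for Cs and Fh1, the members with the largest and the smallest difference between MDX_JJ101 and MDX_tap. They are written 5′ to 3′ on the strand of the gene, with capitals for the matched letters, which lie on the opposite strand in both cases. The windows are chr11:6292070-6292171 on the plus strand for Ogdh, chr14:73552686-73552785 on the plus strand for Sucla2, chr10:128337627-128337726 on the plus strand for Cs and chr1:175625636-175625735 on the minus strand for Fh1.
Ogdh: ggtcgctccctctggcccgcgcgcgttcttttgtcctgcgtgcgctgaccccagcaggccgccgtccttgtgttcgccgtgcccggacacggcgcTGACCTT
Sucla2: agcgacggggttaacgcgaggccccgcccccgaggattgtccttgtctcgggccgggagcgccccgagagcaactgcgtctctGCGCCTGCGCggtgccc
Cs: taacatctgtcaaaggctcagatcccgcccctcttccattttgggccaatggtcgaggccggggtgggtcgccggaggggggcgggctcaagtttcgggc
Fh1: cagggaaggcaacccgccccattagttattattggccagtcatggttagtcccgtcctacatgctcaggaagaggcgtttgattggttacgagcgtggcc

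All 11 member probes were well above background on all 6 arrays, none was saturated, and all 9 members passed the filter on dim probes. A level is the log2 of the background-subtracted signal minus the array's 75th percentile, so that a level of 0 is the signal of the spot at that percentile. Levels are compared within a gene only. Differences are on the log2 scale with their standard error (SE), and the test was limma's moderated test over all 3 groups with Benjamini-Hochberg adjustment over the 20869 genes and a threshold of 0.05.

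Citrate synthase, encoded by Cs, catalyses the entry step. Its level was 8.41 and 8.54 (B10_tap), 8.14 and 8.40 (MDX_tap), and 9.05 and 9.23 (MDX_JJ101). Both MDX_JJ101 arrays lay above all 4 tap water arrays, whereas the MDX_tap arrays lay only just below the B10_tap arrays. MDX_JJ101 was 1.82-fold above MDX_tap, a difference of 0.87 (SE 0.14, 95% interval 0.52 to 1.22, adjusted p = 0.0145), which was larger than the differences of 95.5% of the genes tested.

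NAD-dependent isocitrate dehydrogenase is built of a catalytic alpha subunit, Idh3a, with the beta and gamma subunits Idh3b and Idh3g. Idh3a stood at 6.04 and 6.11 (B10_tap), 5.68 and 6.01 (MDX_tap), and 6.49 and 6.64 (MDX_JJ101). Idh3b stood at 7.52 and 7.50, 7.10 and 7.12, and 7.67 and 7.94 in the same order. Idh3g stood at 7.79 and 7.68, 7.52 and 7.57, and 8.05 and 8.31. For each of the 3 subunits the MDX_tap arrays were lowest and the MDX_JJ101 arrays highest, with no overlap between any groups. In MDX_JJ101 against MDX_tap, Idh3a rose by 0.72 (SE 0.14, adjusted p = 0.0207), Idh3b by 0.70 (SE 0.12, adjusted p = 0.0166) and Idh3g by 0.63 (SE 0.13, adjusted p = 0.0209), or 1.65-fold, 1.62-fold and 1.55-fold. Within an array, the log2 ratio of Idh3a to Idh3b moved by 0.02 and that of Idh3a to Idh3g by 0.09 between these groups, with overlapping arrays in both cases. The ratio of Idh3b to Idh3g was higher by 0.06 in MDX_JJ101 than in MDX_tap and lower by 0.21 in MDX_tap than in B10_tap, with no overlap in either case.

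Ogdh encodes the E1 component of the 2-oxoglutarate dehydrogenase complex. Its level was 8.06 and 8.08 (B10_tap), 7.82 and 8.04 (MDX_tap), and 8.62 and 8.93 (MDX_JJ101). The MDX_JJ101 arrays stood clear of the others, while the second MDX_tap array lay close to B10_tap. The difference between MDX_JJ101 and MDX_tap was 0.84 (SE 0.15, 95% interval 0.47 to 1.22, adjusted p = 0.0160), or 1.79-fold. Ogdh has 2 further probes for the same transcript. One of them gave 0.93 (SE 0.14, adjusted p = 0.015). The other stood at 2.47 and 2.46, 2.45 and 2.45, and 3.02 and 2.49, so that a single MDX_JJ101 array was raised, and its difference of 0.30 (SE 0.19, adjusted p = 0.254) did not pass.

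Succinyl-CoA synthetase pairs the shared alpha subunit Suclg1 with one of a pair of beta subunits, Sucla2 in the ADP-forming enzyme and Suclg2 in the GDP-forming enzyme. Suclg1 stood at 6.35 and 6.44 (B10_tap), 5.99 and 6.06 (MDX_tap), and 6.65 and 6.98 (MDX_JJ101). Sucla2 stood at 7.52 and 7.56 (B10_tap), 7.15 and 7.31 (MDX_tap), and 7.47 and 7.68 (MDX_JJ101). The groups did not overlap for Suclg1, but for Sucla2 the MDX_JJ101 arrays fell on either side of the B10_tap arrays. Suclg1 rose in MDX_JJ101 against MDX_tap by 0.79 (SE 0.14, 1.73-fold, adjusted p = 0.0166). Sucla2 was higher on both MDX_JJ101 arrays than on both MDX_tap arrays, by 0.34 (SE 0.12, 95% interval 0.03 to 0.65), and did not pass (adjusted p = 0.0806).

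Fh1 encodes fumarase, which hydrates fumarate to malate. It stood at 7.0 and 7.10 (B10_tap), 6.82 and 6.87 (MDX_tap), and 6.87 and 7.14 (MDX_JJ101). The first MDX_JJ101 array lay barely above the MDX_tap arrays and the second just above B10_tap. The difference between MDX_JJ101 and MDX_tap was 0.16 (SE 0.13, 95% interval -0.16 to 0.48) and did not pass (adjusted p = 0.349).

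Mdh2, the mitochondrial malate dehydrogenase, regenerates oxaloacetate. Its level was 9.43 and 9.50 (B10_tap), 9.34 and 9.51 (MDX_tap), and 9.89 and 10.02 (MDX_JJ101). The tap water groups overlapped, and both MDX_JJ101 arrays were higher than all 4 of their arrays. The difference between MDX_JJ101 and MDX_tap was 0.53 (SE 0.11, 95% interval 0.25 to 0.82, 1.45-fold, adjusted p = 0.0231).

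**Figure D1:**
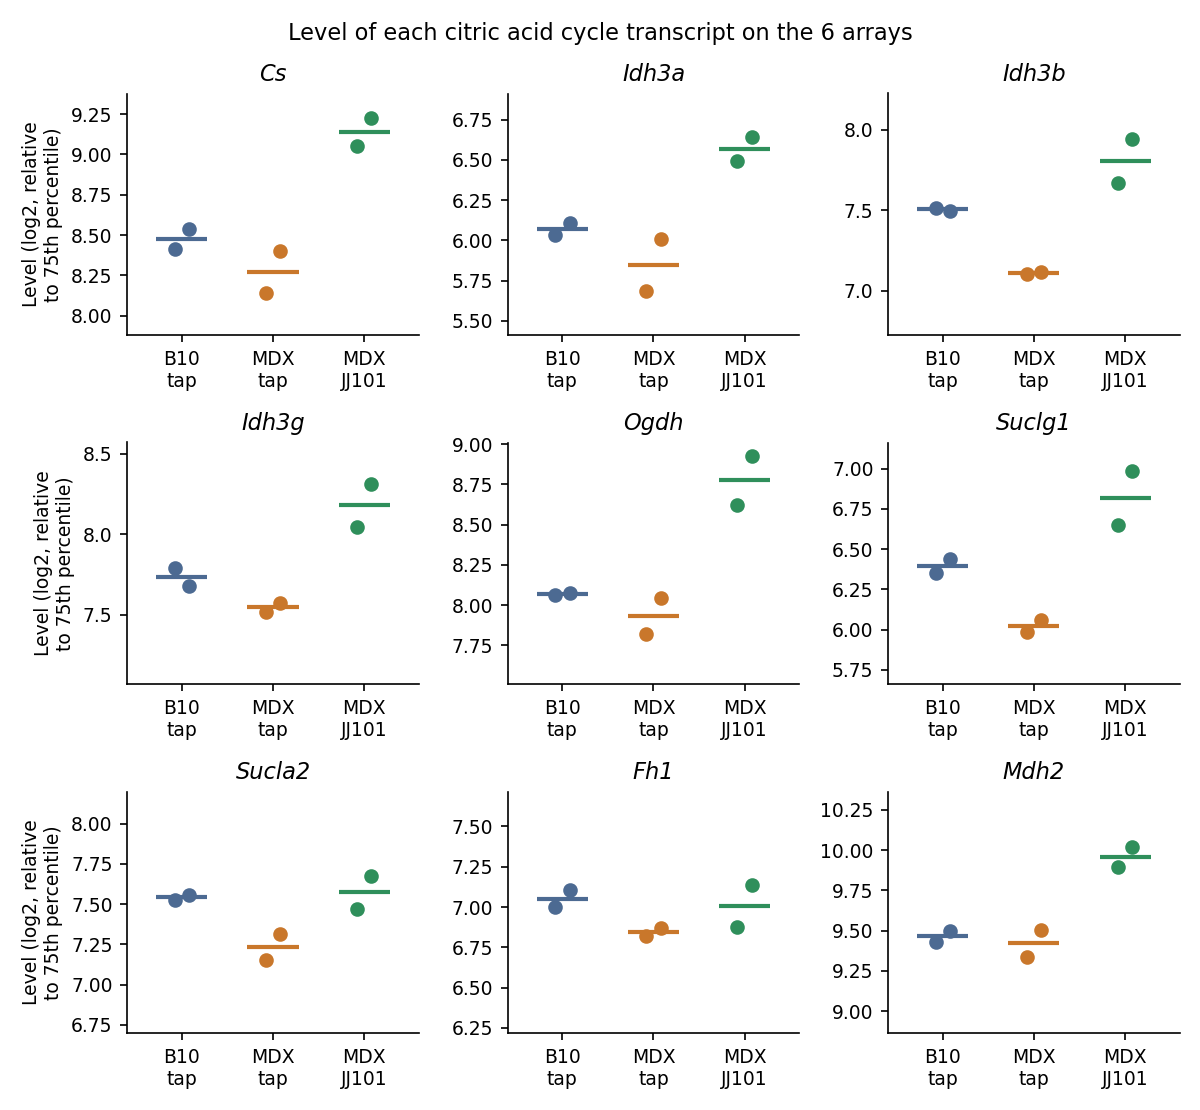
Level of each of the 9 transcripts (y axis, log2 signal relative to the array's 75th percentile) on each array of the 3 groups (x axis); points are arrays and bars the means of 2 arrays. The MDX_JJ101 arrays lie above the MDX_tap arrays in all 9 panels, by a mean of 0.16 for Fh1 to 0.87 for Cs.

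The first comparison asked how MDX mice on tap water differed from C57BL/10 mice on tap water. The B10_tap arrays lay in columns 1 and 2 of the slide, and the MDX_tap arrays in columns 3 and 4. Genotype and slide column therefore cannot be told apart. None of the 9 transcripts passed (0 of 9, with 0.024% of all genes passing, 5 of 20869, by limma's test). All 9 differences were below 0, from -0.40 for Idh3b to -0.04 for Mdh2, with a median of -0.21, where all genes had a median of -0.06 and 58.4% of them were below 0. At an unadjusted p under 0.05 stood 2 of the 9, Idh3b at -0.40 (SE 0.12, adjusted p = 0.178) and Suclg1 at -0.37 (SE 0.14, adjusted p = 0.227), beside 4383 of all genes in either direction and 12.4% of them lower. For 8 of the 9 both MDX_tap arrays were below both B10_tap arrays, against 37.0% of all genes, the exception being Mdh2. The others were Cs at -0.20, Idh3a at -0.23, Idh3g at -0.19, Ogdh at -0.14, Sucla2 at -0.31 and Fh1 at -0.21, with adjusted p from 0.238 to 0.614. The sign for Ogdh and Mdh2 turned with the scaling of the arrays, to 0.04 and 0.13 with median centring, and Mdh2 was at 0.04 without MDX_tap replicate 1. Single arrays also moved the sizes: Cs, Idh3a and Ogdh stood at -0.07, -0.06 and -0.03 without MDX_tap replicate 1 and at -0.33, -0.39 and -0.25 without MDX_tap replicate 2, where the median of the 9 was -0.33.

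The second comparison was between MDX mice on JJ101 water and those on tap water. Of the 9, 7 rose in MDX_JJ101 against MDX_tap (Cs, Idh3a, Idh3b, Idh3g, Ogdh, Suclg1 and Mdh2) and 0 fell, where 19.9% of all genes rose and 36.1% passed in either direction. The median of the 9 was 0.70, and that of all genes was 0.00. Both MDX_JJ101 arrays were above both MDX_tap arrays for 9 of 9, against 37.3% of all genes. In each of the 4 pairings of one array with another, all 9 members were higher in MDX_JJ101 and Fh1 had the smallest difference, between 0.0046 and 0.32.

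The calls rest on few arrays. Of the 7 members, 3 passed without B10_tap replicate 1 or without B10_tap replicate 2 (Cs, Ogdh and Suclg1), 0 without MDX_tap replicate 1 or without MDX_tap replicate 2, 4 without MDX_JJ101 replicate 2 (Cs, Idh3b, Ogdh and Suclg1) and 7 without MDX_JJ101 replicate 1, while the median difference lay between 0.56 and 0.80. All 6 arrays were on 1 slide, with the tap water groups in row 1 and MDX_JJ101 in row 2, so the slide row and the water cannot be told apart. The MDX_tap and MDX_JJ101 arrays shared slide columns 3 and 4; with the column as a block 0 members passed, as did 0 of all genes (8857 at an unadjusted p under 0.05 by limma), with the median difference at 0.70.

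**Figure D2:**
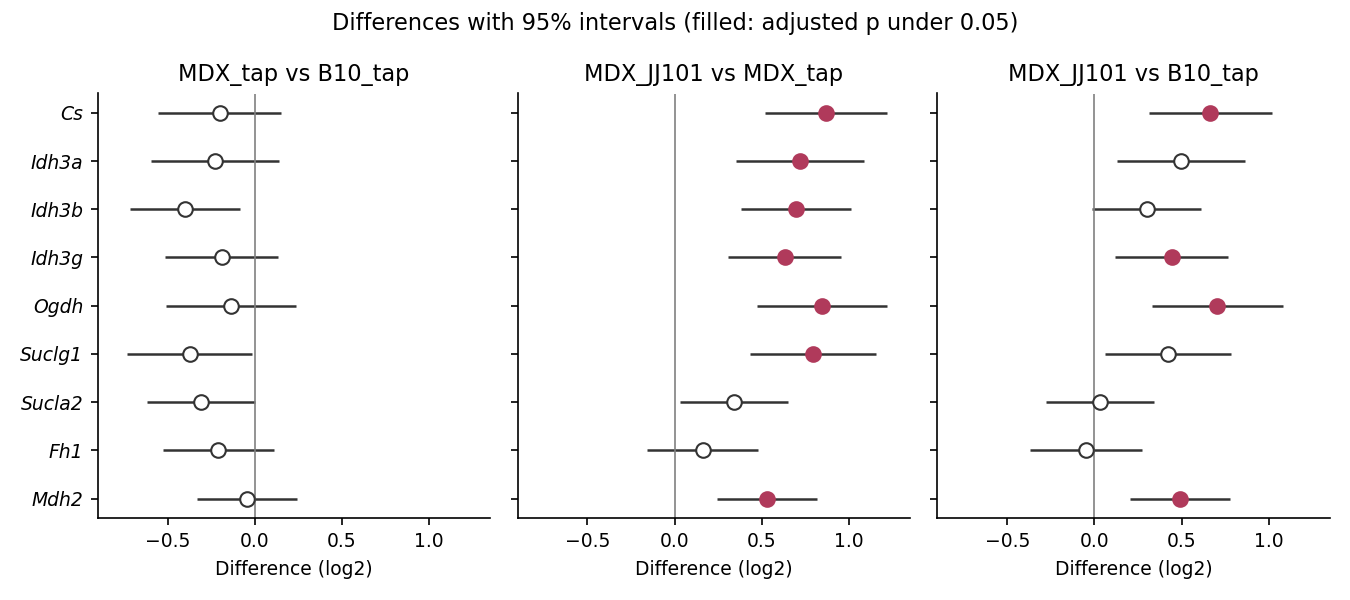
Difference in each comparison (x axis, log2) for the 9 transcripts (y axis), with 95% intervals from limma; filled points passed at an adjusted p under 0.05. The left panel holds 0 filled points, the middle panel 7 and the right panel 4, all of them above 0.

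The third comparison set MDX mice on JJ101 against C57BL/10 mice on tap water. It shares its arrays with the other comparisons and is no independent test of them. Genotype, water, slide row and slide column all differed between these groups, so they cannot be told apart. Of the 9, 4 were higher in MDX_JJ101 and 0 lower, where 16.2% of all genes were higher and 33.6% passed in either direction. They were Ogdh at 0.71 (SE 0.15, 1.63-fold, adjusted p = 0.0237), Cs at 0.67 (SE 0.14, 1.59-fold, adjusted p = 0.0236), Mdh2 at 0.49 (SE 0.11, 1.40-fold, adjusted p = 0.0294) and Idh3g at 0.44 (SE 0.13, 1.36-fold, adjusted p = 0.0496). Idh3g lay just inside the threshold and Idh3a, at 0.50 (SE 0.14, adjusted p = 0.0513), just outside it, and Idh3g kept its call under 6 of 18 alternatives. Suclg1 at 0.42 (adjusted p = 0.0724) and Idh3b at 0.30 (adjusted p = 0.117) did not pass, although their arrays did not overlap. Sucla2, at 0.03 (95% interval -0.28 to 0.34), and Fh1, at -0.05 (95% interval -0.37 to 0.27), had overlapping arrays. In all, 7 of 9 were higher on both arrays, against 37.9% of all genes. Among the 17146 genes well above background on all 6 arrays, limma called 4020 higher and 2638 lower in this comparison. No member passed without B10_tap replicate 1, without B10_tap replicate 2 or without MDX_JJ101 replicate 2, whereas 6 passed without MDX_JJ101 replicate 1 and 4 without either MDX_tap array.

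The differences were unequal in size among the members. To remove any scaling that subtracts 1 value per array, each level was taken relative to the mean of the 9 on the same array. Between MDX_tap and MDX_JJ101, Fh1 dropped by 0.46 and Sucla2 by 0.28 relative to that mean, Mdh2 by 0.09, and both MDX_JJ101 arrays were below both MDX_tap arrays for these 3. Cs gained 0.25, Ogdh 0.22 and Suclg1 0.17, again without overlap, while the 3 isocitrate dehydrogenase subunits gained 0.10, 0.08 and 0.01 and overlapped. For Fh1 the relative level was -0.57 and -0.51 (B10_tap), -0.47 and -0.56 (MDX_tap), and -0.99 and -0.96 (MDX_JJ101). The MDX_JJ101 arrays were thus well below the other 4 arrays, which were mixed. Sucla2 was at -0.04 and -0.05, -0.13 and -0.12, and -0.39 and -0.42, which puts the groups in the order B10_tap, MDX_tap and MDX_JJ101 with no overlap.

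In MDX_tap, compared with B10_tap, Idh3b was lower by 0.17 relative to the mean of the 9, Suclg1 by 0.14 and Sucla2 by 0.08, and Mdh2 was higher by 0.19 and Ogdh by 0.09, each without overlap of the arrays. With 2 arrays against 2, an exact permutation test of a single such value cannot give a two-sided p below 0.333, so these relative shifts are given without a call.

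**Figure D3:**
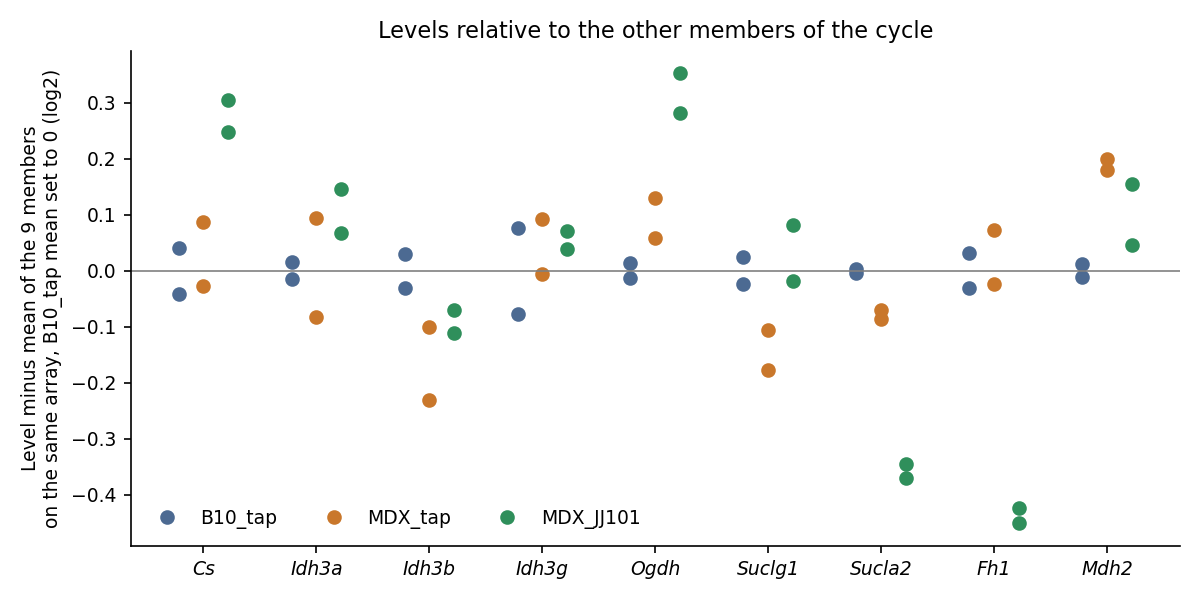
Level of each transcript minus the mean of the 9 on the same array (y axis, log2), with the B10_tap mean of each gene set to 0; each point is 1 array, coloured by group. Fh1 and Sucla2 lie lowest on the MDX_JJ101 arrays, and Cs and Ogdh highest.

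Ratios of pairs of transcripts were taken on the same array. The pairs were picked after their values were seen, and those of 2 members restate the relative shifts above. On the same array, the log2 ratio of Suclg1 to Sucla2 signal was -1.17 and -1.12 (B10_tap), -1.17 and -1.25 (MDX_tap), and -0.82 and -0.69 (MDX_JJ101). The ratio of Suclg2 to Sucla2 was 0.52 higher in MDX_JJ101 than in MDX_tap, and the ratio of Suclg1 to Suclg2 moved by -0.06 with overlapping arrays. Sucla2 thus gained less than both Suclg1 and Suclg2. In the 2-oxoglutarate dehydrogenase complex, the ratio of Ogdh to Dlst, the E2 component, gained 0.18, and the ratio of Ogdh to Dld, the E3 component shared with the pyruvate dehydrogenase complex, gained 0.76. Dld itself differed by 0.08 (SE 0.11, adjusted p = 0.574). The ratio of Mdh2 to Fh1, of successive steps, gained 0.37.

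A scaling that subtracts 1 value per array sets where 0 lies for all members together. Median centring put the median of all genes at 0.23 in MDX_JJ101 against MDX_tap and that of the 9 members at 0.92. Scaling on 7 spike-in probes, which carry RNA added to every sample, put them at -0.46 and 0.24. The main setting and these 2 each subtract 1 value per array from every gene. The members' median relative to all genes, 0.70, is therefore the same in them by construction. It was 0.615 with normexp and quantile normalization and 0.605 in the authors' table. The order of the members also changed in these 2. Ogdh and Idh3a, at 0.84 and 0.72 in the main setting, were at 0.63 and 0.66 with normexp and quantile normalization. The shifts relative to the mean of the 9 are thus not free of such scalings. The 7 called members had a positive difference under every scaling, from 0.07 for Mdh2 to 1.09 for Cs. Sucla2 and Fh1 turned to -0.12 and -0.30 with spike-in scaling, and under it 0 of the 9 passed. The SE of every member was 0.405 with spike-in scaling, against 0.11 to 0.15 in the main setting. The median log2 spike-in signal itself differed between the MDX_JJ101 arrays, at 11.52 and 11.90. Of all genes called, 4160 of 7529 were higher in the main setting, 5692 of 7590 with median centring and 68 of 3881 with spike-in scaling.

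In MDX_JJ101 against B10_tap, median centring and spike-in scaling put the median of all genes at 0.39 and -0.50. They put the members' median at 0.84 and -0.05, and the gap of 0.45 is again the same by construction. Of all genes called, 3376 of 7008 were higher in the main setting, 8457 of 10102 with median centring and 100 of 4623 with spike-in scaling.

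**Figure D4:**
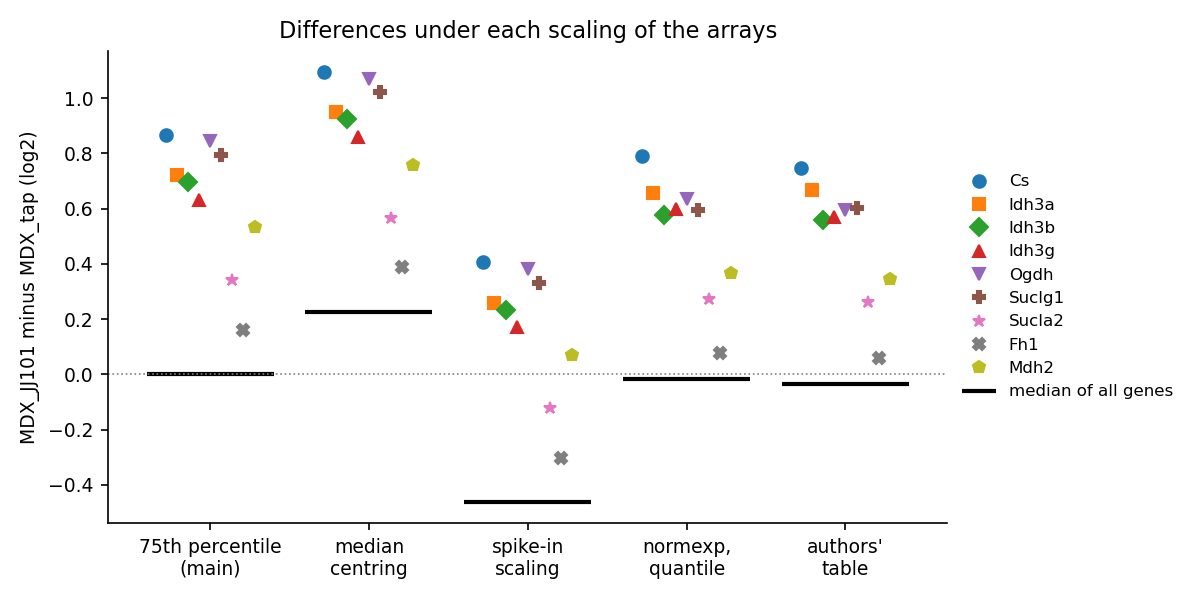
Difference between MDX_JJ101 and MDX_tap (y axis, log2) for the 9 transcripts under 5 scalings of the arrays (x axis); black bars are the median of all genes. Cs is highest and Fh1 lowest under every scaling. With median centring and spike-in scaling the whole set shifts with the median of all genes, which lies at 0.23 and -0.46. With normexp and quantile normalization and in the authors' table the order between them changes, and Ogdh falls from 0.84 to 0.63 and 0.60.

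Of the 8 other subunits of the cycle, 6 rose in MDX_JJ101 against MDX_tap and 0 fell, with a median of 0.60. Of all genes 19.9% rose and 16.1% fell. By limma's test Suclg2 rose by 0.86 (SE 0.12, adjusted p = 0.0130), Sdhc, a membrane anchor of succinate dehydrogenase, by 0.68 (SE 0.10, adjusted p = 0.0140) and Dlst by 0.67 (SE 0.12, adjusted p = 0.0178). Dld and the iron-sulfur subunit Sdhb, at 0.27 (adjusted p = 0.0829), did not pass. In MDX_JJ101 against B10_tap 4 of the 8 were higher, where 16.2% of all genes were. Among them were Dlst by 0.57, Suclg2 by 0.53 and Sdhc by 0.40, the last called under 7 of 18 alternatives. Between MDX_tap and B10_tap 0 passed by limma (2 at an unadjusted p under 0.05), all 8 were below 0, and the median was -0.22, with Suclg2 at -0.33 (adjusted p = 0.218) and Sdhc at -0.27 (adjusted p = 0.227).

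Pyruvate enters through the mitochondrial carrier and the pyruvate dehydrogenase complex. Of 7 such genes 3 rose in MDX_JJ101 against MDX_tap and 0 fell, with a median of 0.38, where 19.9% of all genes rose. They were the E1 alpha subunit Pdha1 by 0.65 (adjusted p = 0.0224), the carrier subunit Mpc2 by 0.40 (adjusted p = 0.0432) and the E1 beta subunit Pdhb by 0.38 (adjusted p = 0.0438). Mpc2 and Pdhb each kept the call under 7 of 18 alternatives, and with spike-in scaling they stood at -0.06 and -0.08. Pdha1 was also higher against B10_tap, by 0.51, a call kept under 9 of 18 alternatives. Of the 7 kinase and phosphatase genes that switch the complex off and on, 2 rose and 0 fell, with a median of 0.41, where 19.9% of all genes rose and their median was 0.00. Pdk2, an inhibitory kinase, rose by 1.40 (SE 0.15, 2.65-fold, adjusted p = 0.0128) and Pdp2, an activating phosphatase, by 0.71 (adjusted p = 0.0274, called under 9 of 18 alternatives). Pdk2 stood at 5.13 and 5.03 (B10_tap), 4.77 and 4.77 (MDX_tap), and 5.99 and 6.36 (MDX_JJ101), with no overlap. Neither list had a gene that passed between MDX_tap and B10_tap (0 by limma, with 1 of each list at an unadjusted p under 0.05). Those with the smallest p there were Mpc2 at -0.36, Pdhx at -0.31, Pdk3 at 0.66 and Pdk2 at -0.31, with adjusted p from 0.107 to 0.303.

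Of 10 paralogs and side enzymes, many of them cytosolic, 3 rose and 1 fell in MDX_JJ101 against MDX_tap, and the median was 0.01. These shares are near those of all genes, of which 19.9% rose and 16.1% fell. The risen genes were Ogdhl, a relative of Ogdh, by 1.05 (adjusted p = 0.0160), Me3, a mitochondrial malic enzyme, by 0.72 (adjusted p = 0.0149) and Idh2, the mitochondrial NADP-dependent isocitrate dehydrogenase, by 0.67 (adjusted p = 0.0137). Acly, the cytosolic enzyme that splits exported citrate for lipid synthesis, fell by 0.52 (adjusted p = 0.0272), a call kept under 9 of 18 alternatives and lost with median centring at -0.29 (adjusted p = 0.132). The cytosolic Mdh1 differed by 0.06 (adjusted p = 0.701), where the mitochondrial Mdh2 rose by 0.53. Aco1, the cytosolic aconitase, was at 0.94 in MDX_tap against B10_tap (adjusted p = 0.110, and 0.0431 with median centring). In MDX_JJ101 against B10_tap it was higher by 0.74 (adjusted p = 0.0363), a call kept under 7 of 18 alternatives. Aco1 was dim, at -3.61 and -3.27 (B10_tap), -2.43 and -2.57 (MDX_tap), and -2.51 and -2.88 (MDX_JJ101). The lowest levels well above background were -4.23 and -4.13 on the B10_tap arrays and -3.33 and -3.29 on the MDX_JJ101 arrays. Ogdhl was at -0.65 in MDX_tap against B10_tap (adjusted p = 0.163).

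Genes of anaplerosis and of the malate-aspartate shuttle, which carries reducing power between cytosol and matrix and uses Mdh2, had a median of 0.55 with 6 of 9 risen and 0 fallen in MDX_JJ101 against MDX_tap. Of all genes 19.9% rose and 16.1% fell. Got2, the mitochondrial aspartate aminotransferase, rose by 1.00 (SE 0.13, adjusted p = 0.0129), the aspartate-glutamate carrier Slc25a12 by 0.87 (adjusted p = 0.0129), the cytosolic Got1 by 0.84 (adjusted p = 0.0139) and the 2-oxoglutarate carrier Slc25a11 by 0.55 (adjusted p = 0.0231). Got2 stood at 6.11 and 6.0 (B10_tap), 5.87 and 6.09 (MDX_tap), and 6.88 and 7.09 (MDX_JJ101), so the tap water groups overlapped and MDX_JJ101 lay above both. Against B10_tap 5 of 9 were higher in MDX_JJ101, where 16.2% of all genes were. Among them were Got2 by 0.93, Got1 by 0.73, Slc25a12 by 0.52 and Slc25a11 by 0.44, the last called under 9 of 18 alternatives. Between MDX_tap and B10_tap 0 passed by limma (1 at an unadjusted p under 0.05), with Slc25a12 at -0.35 and Slc25a10 at -0.40. Of 3 genes of ketone body use only Bdh1 rose, by 0.64 (adjusted p = 0.0444), where 19.9% of all genes rose. Bdh1 kept this call under 5 of 18 alternatives, with adjusted p from 0.0133 to 0.815 over them. It was also higher against B10_tap by 0.71, a call kept under 8 of 18. Between the tap water groups 0 of the 3 passed by limma (1 at an unadjusted p under 0.05), with Acat1 at -0.31 and Bdh1 at 0.06.

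Regulators of mitochondrial biogenesis had a median of 0.67, with 6 of 9 risen and 0 fallen in MDX_JJ101 against MDX_tap. Of all genes 19.9% rose and 16.1% fell. Perm1, a muscle regulator of oxidative genes, rose by 1.05 (SE 0.11, adjusted p = 0.0128), Esrrb by 1.06 (adjusted p = 0.0130) and Esrra by 0.67 (adjusted p = 0.0139), the last pair encoding oestrogen-related receptors, and the coactivator gene Ppargc1b rose by 0.70 (adjusted p = 0.0286, called under 9 of 18 alternatives). Nrf1, at 0.18 (adjusted p = 0.282), and Gabpa, at 0.00 (adjusted p = 0.979), did not pass. Perm1 stood at 4.88 and 4.90 (B10_tap), 4.50 and 4.61 (MDX_tap), and 5.54 and 5.67 (MDX_JJ101), with no overlap. Against B10_tap 5 of 9 were higher, where 16.2% of all genes were, among them Esrrb by 0.86, Ppargc1a by 0.75, Perm1 by 0.71 and Esrra by 0.46. Between the tap water groups 0 passed by limma (1 at an unadjusted p under 0.05), with Perm1 at -0.34 and Esrra at -0.21. Over the 53 genes of these 7 lists together, 27 rose and 1 fell in MDX_JJ101 against MDX_tap, where 19.9% of all genes rose and 16.1% fell. Against B10_tap 20 were higher and 0 lower, where 16.2% of all genes were higher. In MDX_tap against B10_tap 0 passed, where 0.024% of all genes did.

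**Figure D5:**
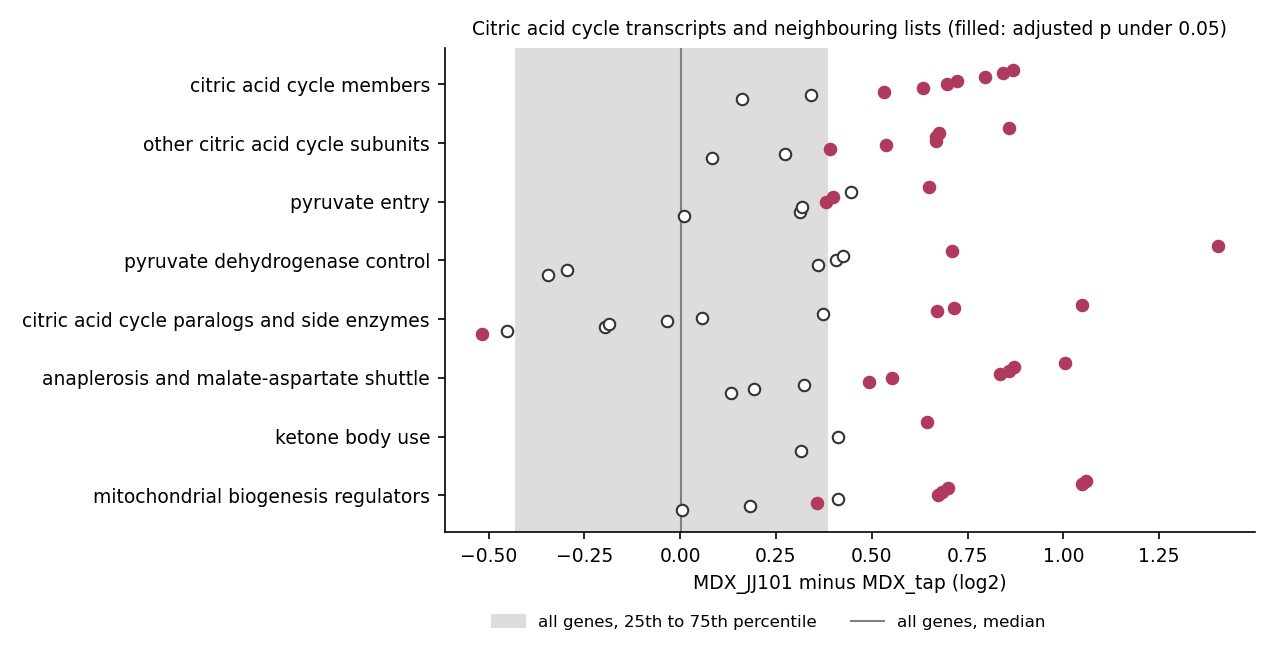
Difference between MDX_JJ101 and MDX_tap (x axis, log2) for each gene of the 9 members and of 7 related lists (y axis); filled points passed at an adjusted p under 0.05, and the grey band spans the 25th to 75th percentile of all genes. Pdk2, at 1.40, lies farthest to the right, and Acly, at -0.52, is the filled point below 0.

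Over the 6 arrays, centred on each gene's own mean, the mean of the 9 members was -0.07 and -0.03 (B10_tap), -0.36 and -0.21 (MDX_tap), and 0.22 and 0.45 (MDX_JJ101). The 5 genes outside the pathway lists closest to this profile, among 13881 genes with a symbol, were Fars2, which encodes the mitochondrial phenylalanyl-tRNA synthetase, Btbd2, Sod2, the mitochondrial superoxide dismutase, Arfrp1 and Pink1, a kinase of mitochondrial quality control. Their root mean square distances were 0.0257, 0.0259, 0.0274, 0.0297 and 0.03, against a median of 0.30 over those genes. Of the members, Idh3g was nearest to their common mean, at 0.0583, and Fh1 farthest, at 0.21. With 6 arrays in 3 groups this likeness is a description of these arrays.

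Markers of other cell types moved in the same comparison, and their part in the members' result was not tested. In MDX_JJ101 against MDX_tap 19.9% of all genes rose and 16.1% fell. Of 11 heart muscle markers tested, 5 rose in MDX_JJ101 against MDX_tap and 0 fell, with a median of 0.56, and their summed linear level, in units of the array's 75th percentile, was 3760 on both B10_tap arrays, 3760 to 3850 in MDX_tap and 4750 to 5030 in MDX_JJ101. Myh6 was level across the groups, at 10.45 and 10.39, 10.17 and 10.30, and 10.28 and 10.32. Nppa, the atrial natriuretic peptide gene, stood at 7.09 and 7.48, 8.97 and 8.52, and 9.99 and 9.34. Of 11 fast skeletal markers tested, 3 rose and 6 fell, with a median of -2.55. The risen ones, named after their values were seen, were Ckm, Atp2a1 and Mybpc2, by 1.37, 1.34 and 0.84. Of the 6 that fell, 4 were well above background on no MDX_JJ101 array. They passed the filter only through the tap water groups, which favours such a fall. The list's summed level was 163 to 167, 158 to 162 and 278 to 304. Most of it came from Ckm and Acta1, so the sum does not follow the list's median of -2.55. Ckm stood at 6.46 and 6.37, 6.01 and 5.94, and 7.15 and 7.53. Acta1 stood at 5.40 and 5.64, 6.23 and 5.56, and 6.82 and 6.47. Myh4 stood at 2.62 and 2.28, 0.91 and 3.53, and -5.52 and -5.42, and Actn3 at -1.12 and -1.46, -3.24 and -0.52, and -5.42 and -4.99, with the MDX_JJ101 values not well above background.

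The summed level of the fibroblast markers was 463 to 492 in B10_tap, 722 to 779 in MDX_tap and 281 to 421 in MDX_JJ101. Dcn, at 8.60 and 8.51, 9.02 and 9.14, and 8.06 and 7.61, makes up most of that sum. Of the fibroblast markers 3 of 6 were lower in MDX_JJ101 than in MDX_tap, where 16.1% of all genes were lower and 19.9% higher. The endothelial markers were at 42.6 to 44.1, 37.5 to 39.5 and 23.7 to 26.8, with 4 of 5 lower. The adipocyte markers were at 246 to 274, 269 to 287 and 172 to 192. Fabp4, at 7.94 and 8.10, 8.16 and 8.07, and 7.59 and 7.42, makes up nearly all of that sum. Every other adipocyte marker lay below 0 on all 6 arrays. Of those tested 3 of 3 were lower, and Lep and Ucp1 were well above background on no array. Of the 3 tested, 2 were well above background on no MDX_JJ101 array and were tested only through a tap water group, which favours such a fall. The macrophage markers were at 86.5 to 89.4, 95.4 to 115 and 85.6 to 88.8, with 3 of 5 lower and 1 higher. The red blood cell markers were at 280 to 554, 323 to 371 and 245 to 247, with 1 of 4 lower, where 16.1% of all genes were.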

How the data were processed

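The submitters' processing notes name Agilent Feature Extraction 11.5.1.1. From it the authors deposited 1 intensity file per array, with a background-subtracted processed signal for each spot and 0 or 1 flags of saturation, outliers and background. The authors' deposited series table is on the log2 scale; its columns ranked spots as the median signal did (Spearman correlation 1 on each array), and it served as an alternative. Probes were named through RefSeq accessions of a GRCm38.p6 gene table; the file headers give build mm9, so that table's gene coordinates were not used. Of 55681 probes 27650 matched a symbol.

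The processed signal was put on the log2 scale minus the array's 75th percentile over non-control spots, outlier spots dropped and repeated spots averaged per probe. A probe stayed in if some group had both arrays well above background (27258 probes), and the brightest probe of a gene was used (20869 genes and transcripts, 8 missing values). The 3 groups were fitted together in limma 3.58.1 under R 4.3.3 (3 residual and 2.21 prior degrees of freedom), two-sided. The fit was also run on simulated data with independent noise on every array. Such data cannot show how the fit behaves where arrays share a source of spread. Precision is limited by the number of arrays.

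The members and lists were chosen with earlier results of these data known. Named were every member, for each related list at most 4 genes past the threshold with the smallest p (or the 2 smallest p where none passed), the 5 genes nearest to the members' mean profile, and Myh6, Nppa, Myh4 and Actn3. Dmd, Dld, Sdhb, Mdh1, Nrf1, Gabpa, Acta1, Dcn, Fabp4 and 3 risen fast skeletal markers were added after their values were seen. Replicate numbers were not used to pair the arrays in the main fit. The correlation of same-numbered deviations across genes was -0.06 to 0.16, which cannot show that the arrays were unpaired. It was highest between MDX_tap and MDX_JJ101, whose same-numbered arrays shared a slide column. Some genes of these lists are counted but not reported here by name.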

Additional observations from a re-analysis of the deposited data

How the results depend on the processing

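The tests rest on 2 arrays a group. In MDX_tap against B10_tap the count of members that passed was 0 under all 18 alternatives. In MDX_JJ101 against MDX_tap, where the count was 7, it was 0 with spike-in scaling, 3 with only the 2 groups fitted, 0 with the slide column as a block and 0 to 7 when 1 array was left out. It was 7 or 8 under the other alternatives. In MDX_JJ101 against B10_tap, where it was 4, it was 7 with median centring, 7 with an intensity trend in limma, 0 with spike-in scaling and 0 to 6 when 1 array was left out, and 3 to 6 otherwise. Leaving out an array of the group not compared gave the same counts as fitting 2 groups (3 and 4). With the replicate number as a block the counts were 0, 7 and 4, the last with Idh3a in place of Idh3g. Over all genes the calls numbered 5 (0 to 396), 7529 (0 to 13640) and 7008 (76 to 14092).

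The direction turned as follows. In MDX_tap against B10_tap, Ogdh was 0.036 and Mdh2 0.13 with median centring, and Mdh2 was 0.087 with normexp and quantile normalization and 0.075 in the authors' table. When 1 array was left out Mdh2 ranged from -0.126 to 0.041 (above 0 without MDX_tap replicate 1) and Bdh1 from -0.085 to 0.211 (below 0 without B10_tap replicate 1 and without MDX_tap replicate 2). In MDX_JJ101 against MDX_tap with spike-in scaling, Sucla2 was -0.12, Fh1 -0.30, Mpc2 -0.062 and Pdhb -0.081. In MDX_JJ101 against B10_tap with spike-in scaling, Idh3b was -0.19, Idh3g -0.048, Suclg1 -0.071, Sucla2 -0.46, Mdh2 -0.0025, Esrra -0.032, Sdhc -0.091 and Slc25a11 -0.052. Sucla2 was -0.10 with normexp and quantile normalization and -0.10 in the authors' table, and Fh1 was 0.35 with median centring. When 1 array was left out Sucla2 ranged from -0.072 (without MDX_JJ101 replicate 2) to 0.135 and Fh1 from -0.178 to 0.083 (above 0 without MDX_JJ101 replicate 1 and, at 0.0047, without B10_tap replicate 2). Normexp was run on median signals. The cause was not tested.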
